A study of Saccharomyces cerevisiae with 12 samples.

Results

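Yeast genes named UTP, NOP, RRP, NOC, NSA, RPF or ENP with a number encode proteins that make ribosomes in the nucleolus of Saccharomyces cerevisiae. A gene was taken as a member when its name in the deposited table was one of these stems followed directly by a digit. No measured value entered this rule, but it was chosen with earlier results of these data known. The rule gave 59 of the 6053 genes, 18 named UTP and 41 with one of the other names. The split is by name alone, and NOP14 and NOC4, which also carry UTP synonyms, stand among the others. RNA levels were measured in 4 groups of 3 libraries each: bmh2∆ cells kept without KCl (0 mM), bmh2∆ cells at 50 mM KCl, bmh1∆ cells at 0 mM KCl and bmh1∆ cells at 50 mM KCl. Each strain is BY4741 with the gene of 1 of the 2 yeast 14-3-3 proteins deleted, and all cultures were grown at 50 mM KCl, washed, and then kept for 60 min with or without the salt. BY4741 itself is not analysed here, so no group shows the levels in cells that have both genes. Nothing in the labels says which libraries came from separate cultures, so p values measure the spread between these libraries only.

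Ribosome production begins with a long precursor RNA made by RNA polymerase I, which is cut, modified and folded while ribosomal proteins are added. The small-subunit processome, to which the UTP proteins belong, assembles with the U3 snoRNA on the part of the precursor that becomes the 40S subunit. Most of the NOP, RRP, NOC, NSA and RPF proteins act on the 60S side, in the snoRNPs that modify the RNA, or in the exosome, which trims and degrades RNA from the 3′ end. In growing yeast these genes are known to be switched on and off together, through the PAC and RRPE promoter elements, when nutrients or stress change.

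The members carried these elements at a higher share than promoters in general. In the S288C reference (RefSeq, build R64, not known to be the one used for the tags), the window from 250 bases before to 50 bases after the start codon held the PAC core GATGAG on either strand in 49 of 59 members, against 20.4% of all 6001 promoters. The RRPE core AAAATTT, again on either strand, stood in 54 of 59 members, against 23.2% of all promoters. Both were present in 44 members, against 7.75% of all promoters, and no member had neither. Of the 18 UTP promoters 15 held PAC and 18 held RRPE, and of the 41 others 34 held PAC and 36 held RRPE. The cores cannot overlap each other. These matches are a description of letters, not of factor binding. The windows of the 3 genes below are shown because UTP7 and UTP11 lay at opposite ends of the potassium response of bmh2∆ and NOP56 had the smallest p in bmh1∆, although all 3 carry both elements. Capitals mark the cores, and where the RRPE letters match on both strands the run in capitals is longer by a base. UTP7 is at chrV:325887-326186 on the minus strand, UTP11 at chrXI:256423-256722 on the minus strand and NOP56 at chrXII:545847-546146 on the plus strand.
UTP7: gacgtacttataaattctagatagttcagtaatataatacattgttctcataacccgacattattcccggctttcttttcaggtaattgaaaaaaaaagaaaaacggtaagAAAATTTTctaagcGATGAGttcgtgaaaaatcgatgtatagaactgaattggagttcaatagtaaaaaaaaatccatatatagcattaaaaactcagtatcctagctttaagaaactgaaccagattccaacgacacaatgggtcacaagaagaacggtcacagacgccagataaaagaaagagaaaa
UTP11: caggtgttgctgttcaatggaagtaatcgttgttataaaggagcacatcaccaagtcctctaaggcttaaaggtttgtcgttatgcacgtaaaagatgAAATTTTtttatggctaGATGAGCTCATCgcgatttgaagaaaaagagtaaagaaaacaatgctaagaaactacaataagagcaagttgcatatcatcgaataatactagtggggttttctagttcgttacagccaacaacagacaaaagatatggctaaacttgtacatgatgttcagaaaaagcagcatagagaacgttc
NOP56: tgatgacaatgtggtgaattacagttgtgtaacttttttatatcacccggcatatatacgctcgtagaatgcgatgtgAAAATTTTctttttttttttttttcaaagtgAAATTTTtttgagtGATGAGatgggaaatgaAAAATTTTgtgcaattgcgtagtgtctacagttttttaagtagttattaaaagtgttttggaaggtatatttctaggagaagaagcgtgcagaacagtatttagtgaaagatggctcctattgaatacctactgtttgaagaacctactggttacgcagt

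RNA was read by SAGE-tag sequencing, in which each polyadenylated transcript is meant to give a 21-base tag at its most 3′ CATG, so the level in RPM (reads scaled to a fixed total per library) was not divided by gene length. RPM are relative, so less of an RNA in a cell and more of all other RNA cannot be told apart. In bmh1∆, 4 of the 6 libraries came from lane 1 and are named by their index, GTCACG and TGCACT without KCl and GGATAT and CTATAG with it. B0 and B50, which complete bmh1∆, and the 6 libraries of bmh2∆ (C, D and E, each at 0 and at 50 mM KCl) are named by a letter and came from other lanes. This split is called the run here, although the labels give lanes and do not name separate sequencing runs. The lettered libraries also differ in lane: C50, D50, E50 and C0 came from lane 5, E0, D0 and B0 from lane 6 and B50 from lane 7. In bmh2∆ the KCl concentration is thus partly mixed with lane. The part of lane in the bmh2∆ comparison was not tested. Read depth is known only from the step between values: taken as 1 read each, the totals ran from 6237952 in B50 to 107579363 in B0. The deepest libraries stood apart. In such reads, B0 was above the sum of all other lettered libraries in 6020 of the 6032 genes it detected and below it in 0, and GTCACG was above the sum of the other lane 1 libraries in 6026 of the 6030 genes it detected and below it in 1. Both were above the sum in all 59 members, whereas each other library was below its own in at least 6029 genes. BMH2 was at most 0.291 RPM in the bmh2∆ libraries and 197 to 505 RPM in the libraries labelled bmh1∆. BMH1 was at 536 to 4170 RPM in the libraries labelled bmh1∆ and 4048 to 5391 RPM in bmh2∆. The most 3′ CATG of BMH1 lies after its stop codon, so its tag may not check the deletion, but B0 had the 4170 RPM, a level within the range of bmh2∆. From these values, B0 and GTCACG may not be single libraries, and what they hold was not tested. They are kept below as libraries of bmh1∆ at 0 mM KCl, as labelled, also where all 3 libraries of that group are compared. Counts by p value are therefore also given without B0 and GTCACG for 4 comparisons. These are starvation in bmh1∆, the difference between the responses, the strains at 0 mM KCl and the difference between runs. Other counts that rest on B0 or GTCACG are given only with them. Among these are counts without overlap, counts of intervals and the other counts with the run as a term. URA3, which BY4741 lacks, was at most 0.328 RPM in all libraries.

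Taken over all 59 genes, the members made up a steady share of the RNA. Starved bmh2∆ cells had a summed level of 6102 ± 281 RPM, against 6419 ± 148 RPM with KCl (SD, 3 libraries in each group). In bmh1∆ it was 6218 ± 336 RPM at 0 mM KCl and 6277 ± 266 RPM at 50 mM KCl. In bmh2∆ the sum of the 18 UTP genes did not overlap between the KCl concentrations, and that of the 41 others did. The summed UTP level was 1115, 1146 and 1173 RPM in bmh2∆ libraries C, E and D at 0 mM KCl, against 1307, 1434 and 1373 RPM in C, D and E at 50 mM KCl. The other 41 genes summed to 5050, 5201 and 4623 RPM in C, E and D at 0 mM KCl, against 4995, 4936 and 5212 RPM in C, D and E at 50 mM KCl. In bmh1∆ both classes overlapped between the KCl concentrations. The UTP genes summed to 1526, 1282 and 1341 RPM in GTCACG, B0 and TGCACT at 0 mM KCl, against 1674, 1250 and 1455 RPM in GGATAT, B50 and CTATAG at 50 mM KCl. The others summed to 4515 to 4996 RPM in bmh1∆ at 0 mM KCl, against 4523 to 5237 RPM in bmh1∆ at 50 mM KCl. These sums are dominated by the most abundant genes and no test was made on them.

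**Figure D1:**
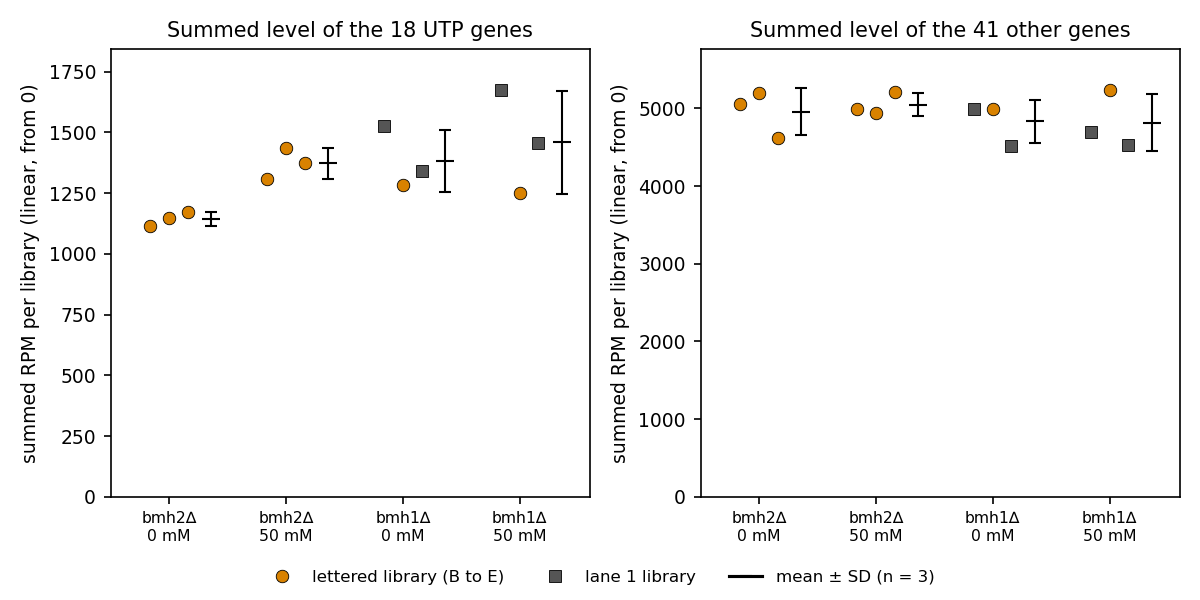
Summed level in RPM (linear axes from 0) of the 18 UTP genes (left) and of the 41 other members (right) in each library, by strain and KCl concentration. Circles are lettered libraries, squares are lane 1 libraries and bars are the mean ± SD of 3 libraries, and the UTP sums of bmh2∆ at 0 mM KCl (1115 to 1173 RPM) lie below all others shown, while the sums of the other genes overlap between all groups.

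The medians, which give each gene equal weight, did not overlap either for the UTP genes. The median UTP gene was at 5.52, 5.46 and 5.50 on the log2 scale in bmh2∆ C, E and D at 0 mM KCl, against 5.57, 5.80 and 5.96 in C, D and E at 50 mM KCl. Set against the other members of the same library, the bmh2∆ libraries at 0 mM KCl spread more widely. Their SD was 0.21, against 0.03 for the UTP median alone. The median UTP gene lay below the median of the others by 0.52 ± 0.21 on the log2 scale in bmh2∆ at 0 mM KCl, and by 0.26 ± 0.22 in bmh2∆ at 50 mM KCl (SD over 3 libraries). The single differences were -0.74, -0.50 and -0.32 in C, E and D at 0 mM KCl, against -0.42, -0.34 and -0.0036 in C, D and E at 50 mM KCl, and here the groups overlapped. In bmh1∆ the difference was -0.08 ± 0.18 at 0 mM KCl and -0.08 ± 0.43 at 50 mM KCl. In bmh1∆ the libraries spread by more than the KCl groups differed.

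The snoRNP proteins and the 60S factors held the largest sums in all 4 groups. The 4 snoRNP proteins NOP1, NOP56, NOP58 and RRP9 summed to 1765 ± 244 RPM in bmh2∆ at 0 mM KCl and 1822 ± 70.4 RPM at 50 mM KCl, and to 1661 ± 214 RPM in bmh1∆ at 0 mM KCl and 1766 ± 322 RPM at 50 mM KCl. NOP56, a core protein of the box C/D snoRNPs that guide methylation, was the most abundant member (717 RPM over all libraries), and RRP9, a protein of the U3 snoRNP, the least abundant of these 4 (39.6 RPM). The 19 factors of the 60S subunit summed to 1908 ± 156 RPM in bmh2∆ at 0 mM KCl and 1911 ± 94.1 RPM at 50 mM KCl, and to 1604 ± 291 RPM in bmh1∆ at 0 mM KCl and 1594 ± 380 RPM at 50 mM KCl. NOP2, a methyltransferase of 25S rRNA, led them with 222 RPM, and RRP17, an exonuclease, was lowest of all members with 0.00 to 5.14 RPM. RRP17 is also the only member with no CATG in its coding sequence or in the 150 bases after it.

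Among the UTP complexes, the sums cover only subunits that the name rule reaches. The 6 members in UtpA, whose proteins bind the precursor first, summed to 326 ± 62.5 RPM in bmh2∆ at 0 mM KCl and 422 ± 46.2 RPM at 50 mM KCl. In bmh1∆ they summed to 445 ± 60.4 RPM at 0 mM KCl and 423 ± 136 RPM at 50 mM KCl. Within UtpA, UTP5 had the highest mean (141 RPM) and UTP15 the lowest (23.2 RPM). The 4 members in UtpB, whose complex holds the U3 snoRNA, summed to 305 ± 33.0 RPM in bmh2∆ at 0 mM KCl and 377 ± 25.9 RPM at 50 mM KCl. In bmh1∆ they summed to 276 ± 63.3 RPM at 0 mM KCl and 309.9 ± 98.5 RPM at 50 mM KCl, with UTP21 highest (136 RPM) and UTP13 lowest (20.1 RPM). NAN1 of UtpA and PWP2 and DIP2 of UtpB are left out of these sums. In bmh2∆ DIP2 was at 104.8 ± 62.4 RPM at 0 mM KCl and 66.8 ± 17.0 RPM at 50 mM KCl, opposite to the UtpB sum. NAN1 was at 31.6 ± 4.02 and 27.9 ± 3.84 RPM, opposite to the UtpA sum. PWP2 was at 91.6 ± 23.5 and 100.6 ± 15.1 RPM, in the direction of the UtpB sum. Sums of the whole complexes were not tested. In the small complex of UTP22, RRP7 and RRP36, RRP7 was highest (110.4 RPM) and RRP36 lowest (30.8 RPM). Of the remaining UTP genes UTP11 was highest (137 RPM) and UTP30, a protein with the fold of a ribosomal protein, lowest (17.98 RPM). The other 40S factors ran from ENP2 (55.3 RPM) to RRP12 (172 RPM), and the exosome subunits from RRP43 (26.4 RPM) to RRP4 (193 RPM).

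The effect of potassium starvation in bmh2∆ was the first comparison. No member passed an adjusted p of 0.05 (limma, Benjamini-Hochberg over 5278 genes), while 5.53% of all genes tested did (2.9% higher and 2.63% lower at 0 mM KCl). All 59 members passed the filter on low values. At an unadjusted p under 0.05 there were 3 members, 2 higher and 1 lower at 0 mM KCl, against 19.2% of all genes. This fit takes the spread of each gene from all 4 groups, and the median spread was larger in bmh1∆. With the bmh2∆ groups alone, 2 members were called higher and 2 lower, against 11.8% and 12.1% of all genes. In that fit 10 members had an unadjusted p under 0.05, 2 higher and 8 lower, against 37.4% of all genes (limma). The median log2 fold change was -0.23 for the 18 UTP genes and 0.02 for the 41 others, beside 0.05 for all genes tested. There was no overlap between bmh2∆ libraries starved and supplied with KCl for 4 members that were higher and 10 that were lower, against 20.2% and 20.5% of all genes. Of the 10 lower, 5 were UTP genes (UTP9, UTP11, UTP20, UTP21 and UTP22), and the others were NOP1, NOP12, NOP13, RRP17 and RRP43. The 4 higher were UTP7, UTP14, NOC3 and NSA2. Over the 59 members both counts lie below the share in all genes. By class, the 5 lower of 18 UTP genes lie above that share and the 5 lower of 41 others below it. The 2 higher in each class lie below it, and no test was made on these counts.

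**Figure D2:**
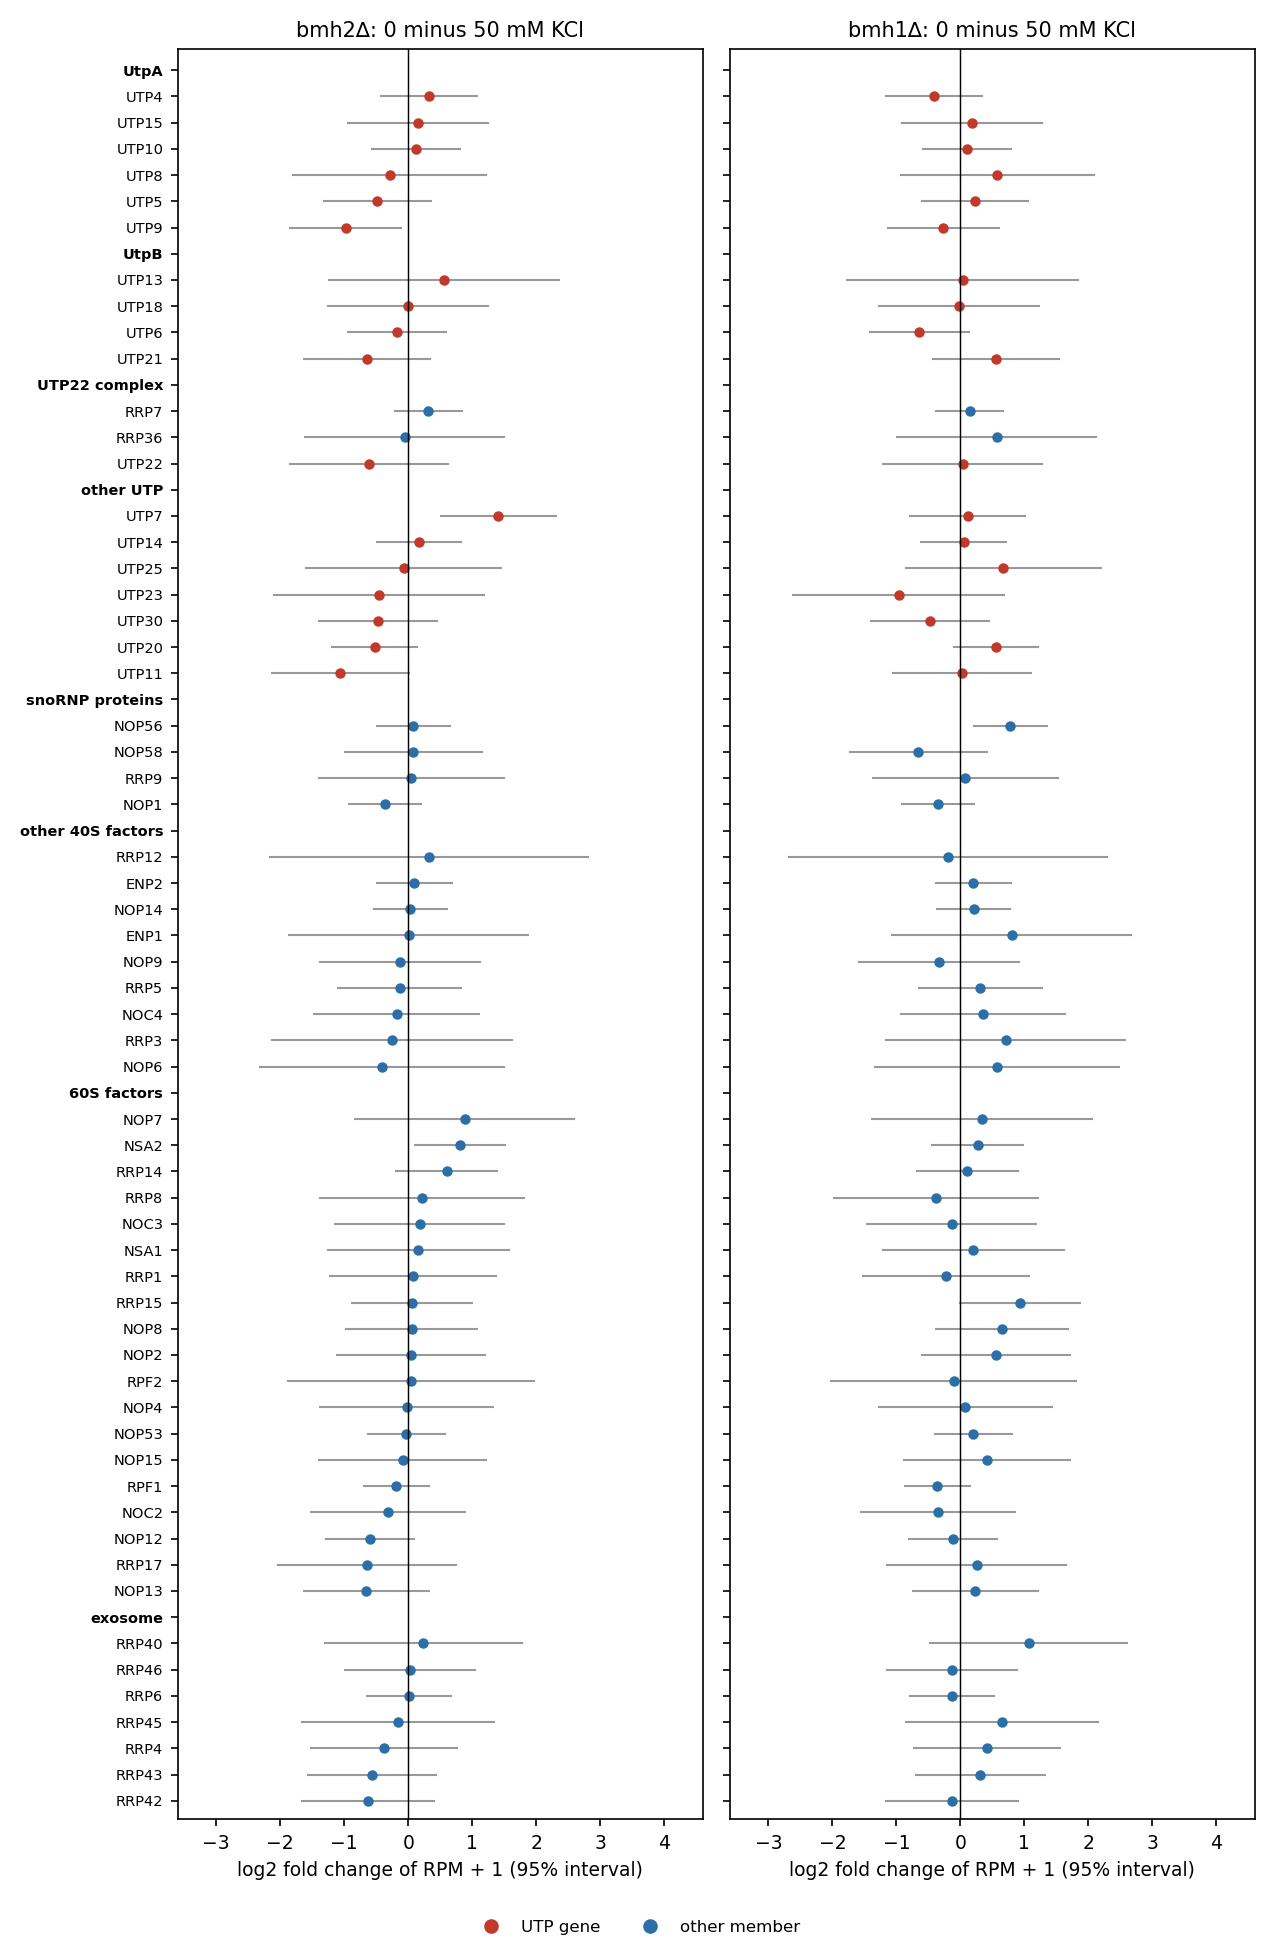
Log2 fold change of RPM + 1, 0 minus 50 mM KCl, of each member in bmh2∆ (left) and bmh1∆ (right), with the 95% interval of the fit, ordered by role and by the value in bmh2∆. Most intervals span 0 and many reach past 1 in size; UTP7 (1.41), NSA2 (0.81) and UTP9 (-0.98) in bmh2∆ and NOP56 (0.78) in bmh1∆ have intervals that leave out 0.

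UTP7 came nearest to a call. This WD-repeat protein of the processome is needed for 18S rRNA to form. It was at 99.3, 163 and 56.5 RPM in bmh2∆ C, E and D at 0 mM KCl, against 48.3, 31.5 and 30.7 RPM in C, D and E at 50 mM KCl. All starved libraries lay above all libraries with KCl, and the log2 fold change was 1.41 (SE 0.41, adjusted p = 0.0733, limma). With the run as a term in the fit the adjusted p was 0.0116, within a range of 0.0116 to 0.259 over all alternatives (limma). In bmh1∆ UTP7 was at 123, 69.3 and 93.0 RPM in GTCACG, B0 and TGCACT at 0 mM KCl, against 106.5, 61.4 and 95.2 RPM in GGATAT, B50 and CTATAG at 50 mM KCl, a log2 fold change of 0.12 (95% interval -0.78 to 1.01).

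The opposite direction was seen in UTP11, UTP9, UTP20 and UTP21. UTP11, a further subunit of the processome, was at 62.6, 62.7 and 85.9 RPM in bmh2∆ C, E and D at 0 mM KCl, against 121, 151 and 172 RPM in C, D and E at 50 mM KCl. Its log2 fold change was -1.06 (SE 0.49, adjusted p = 0.267, limma), and with the run term the adjusted p was 0.0222 (0.0103 to 0.559 over all alternatives, limma). In bmh1∆ its libraries overlapped, with 179, 111 and 169.6 RPM in GTCACG, B0 and TGCACT at 0 mM KCl, against 206, 57.9 and 266 RPM in GGATAT, B50 and CTATAG at 50 mM KCl. UTP9, a subunit of UtpA, was at 46.2, 44.1 and 68.4 RPM in bmh2∆ C, E and D at 0 mM KCl, against 91.7, 103 and 116 RPM in C, D and E at 50 mM KCl. Its log2 fold change was -0.98 (SE 0.39, adjusted p = 0.195, limma). Both genes thus had all starved libraries of bmh2∆ below all libraries with KCl, without a call. UTP20, a very large protein of the processome, was at 40.8, 40.1 and 41.4 RPM in C, E and D at 0 mM KCl, against 44.8, 58.9 and 78.2 RPM in C, D and E at 50 mM KCl (log2 fold change -0.53, adjusted p = 0.398, limma). UTP21 of UtpB was at 138, 103 and 180.5 RPM in C, E and D at 0 mM KCl, against 200.4, 229.6 and 217 RPM in C, D and E at 50 mM KCl (log2 fold change -0.65, adjusted p = 0.511, limma).

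Outside the UTP genes, NSA2, a factor of 60S assembly, had the smallest p. It was at 84.9, 84.9 and 74.8 RPM in bmh2∆ C, E and D at 0 mM KCl, against 46.2, 49.6 and 42.6 RPM in C, D and E at 50 mM KCl. The log2 fold change was 0.81 (SE 0.32, adjusted p = 0.188, limma), and 0.0347 was the adjusted p with the run term (0.0155 to 0.444 over all alternatives, limma). NOP12 and NOP13, RNA-binding proteins of the nucleolus, lay lower at 0 mM KCl, NOP12 with 81.3 ± 4.54 RPM in bmh2∆ at 0 mM KCl and 124 ± 20.3 RPM at 50 mM KCl (log2 fold change -0.60, adjusted p = 0.346, limma). NOP13 had 117 ± 14.1 RPM at 0 mM KCl and 189 ± 51.4 RPM at 50 mM KCl (log2 fold change -0.66, adjusted p = 0.497, limma). NOP1, the methyltransferase fibrillarin, had 430.1 ± 27.5 RPM at 0 mM KCl and 552 ± 31.4 RPM at 50 mM KCl (log2 fold change -0.36, adjusted p = 0.53, limma). RRP14, which acts on both subunits, had 31.2 ± 12.8 RPM at 0 mM KCl and 19.2 ± 2.00 RPM at 50 mM KCl (log2 fold change 0.60, adjusted p = 0.43, limma). NOP7, a protein of 60S assembly, had 262 RPM in library C at 0 mM KCl, against 45.98 to 61.0 RPM in the other 5 bmh2∆ libraries, so its log2 fold change of 0.88 (SE 0.78) rests on that library. UTP13 of UtpB likewise had 69.2 RPM in E at 0 mM KCl, against 7.42 to 30.6 RPM in the other 5. The members nearest to no change in bmh2∆ were UTP18 (log2 fold change 0.00), ENP1 (0.01) and RRP6 (0.02).

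**Figure D3:**
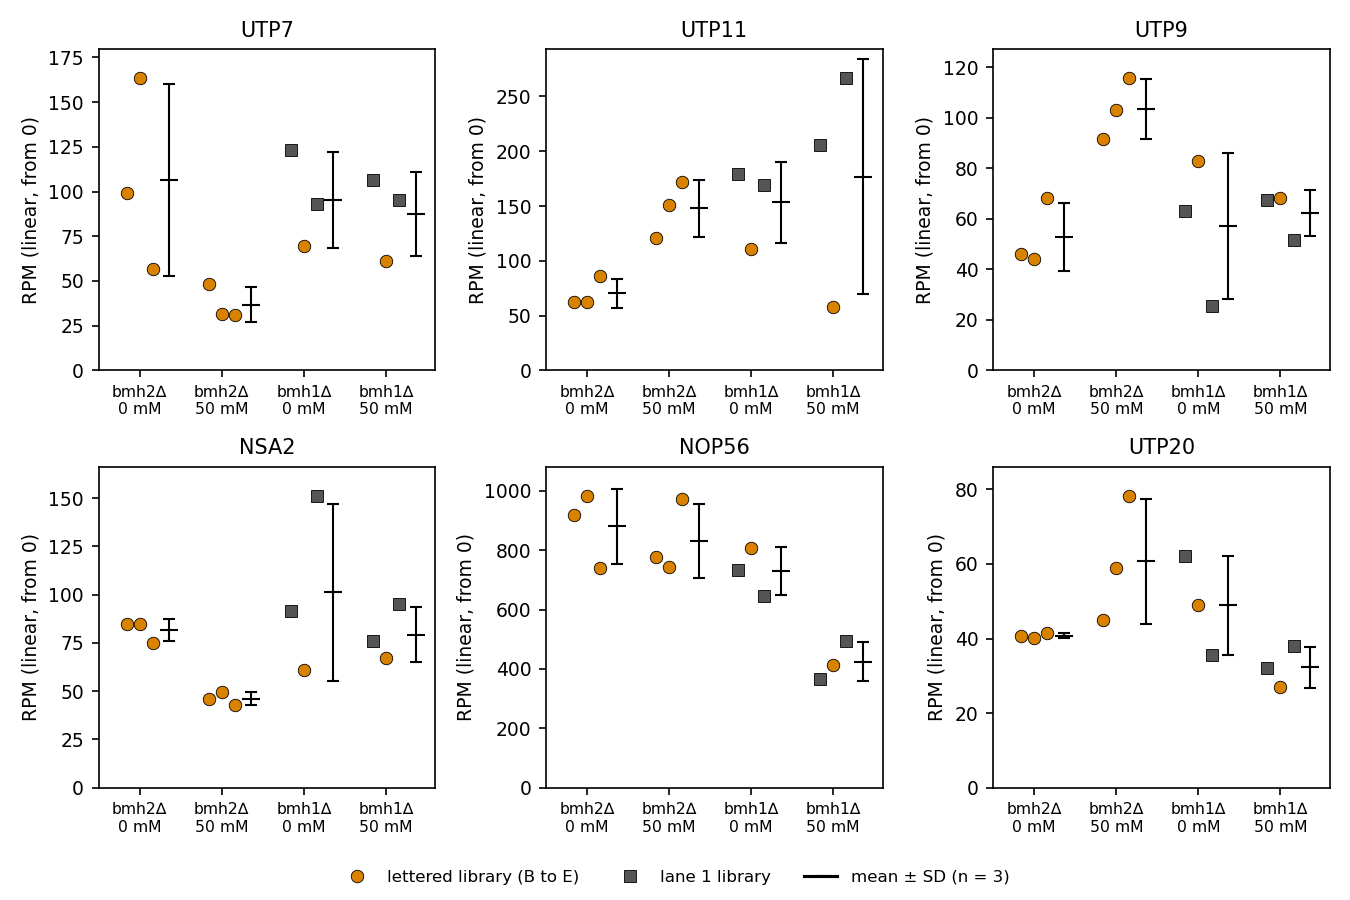
Level in RPM (linear axes from 0) of UTP7, UTP11, UTP9, NSA2, NOP56 and UTP20 in each library, by strain and KCl concentration. Circles are lettered libraries, squares are lane 1 libraries and bars are the mean ± SD of 3 libraries; UTP7 and NSA2 lie higher and UTP11, UTP9 and UTP20 lower in bmh2∆ at 0 than at 50 mM KCl without overlap, and NOP56 lies higher at 0 than at 50 mM KCl without overlap in bmh1∆ but not in bmh2∆.

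How much the tests could have missed is given by the intervals. The 95% interval of the log2 fold change lay within -1 and 1, that is, within a change of up to 2-fold either way, in 12 of 59 members in bmh2∆, against 17.5% of all genes. With the run as a term it did so in 35 of 59 members, against 41.0% of all genes, and then 2 members (UTP7 and NSA2) were called higher and 1 (UTP11) lower, against 10.6% and 9.49% of all genes (20.1% together). For the members whose interval reached past 1 in size, a change of more than 2-fold was not left out.

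In bmh1∆ starvation again called no member, against 0.966% of all genes, and the 51 genes called there were all higher at 0 mM KCl. That one-sidedness depended on the libraries and the fit: without B0 and GTCACG 1.12% of all genes were called higher and 1.08% lower, and with the run as a term 7.54% higher and 1.17% lower. A single member, NOP56, had an unadjusted p under 0.05, against 11.7% of all genes. It was at 735, 808 and 645 RPM in GTCACG, B0 and TGCACT at 0 mM KCl, against 366, 414 and 495 RPM in GGATAT, B50 and CTATAG at 50 mM KCl. All 3 starved libraries lay above all 3 with KCl, and the log2 fold change was 0.78 (SE 0.26, adjusted p = 0.217, limma). In bmh2∆ NOP56 was at 880.2 ± 126 RPM at 0 mM KCl and 832 ± 124 RPM at 50 mM KCl. RPF1, a factor of 60S assembly, was the only member lower without overlap, with 68.7, 61.7 and 65.3 RPM in GTCACG, B0 and TGCACT at 0 mM KCl, against 95.6, 87.8 and 70.2 RPM in GGATAT, B50 and CTATAG at 50 mM KCl (log2 fold change -0.36, adjusted p = 0.641, limma). The share of all genes without overlap was 9.44% higher and 3.16% lower.

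The median log2 fold change in bmh1∆ was 0.04 for the UTP genes and 0.20 for the others, beside 0.14 for all genes tested, so relative to all genes neither class stood far off. RRP15, a 60S factor, had 35.0 ± 10.6 RPM at 0 mM KCl and 19.1 ± 9.05 RPM at 50 mM KCl (log2 fold change 0.93, adjusted p = 0.429, limma). RRP40, a cap subunit of the exosome, had 66.8, 24.5 and 119 RPM in GTCACG, B0 and TGCACT at 0 mM KCl, against 32.0, 8.34 and 71.5 RPM in GGATAT, B50 and CTATAG at 50 mM KCl (log2 fold change 1.07, adjusted p = 0.652, limma). All 4 lane 1 libraries lay above both lettered ones. In the other direction, UTP23, which takes part in the early cuts of the 18S precursor, had 40.1, 109 and 23.8 RPM in GTCACG, B0 and TGCACT at 0 mM KCl, against 47.4, 326 and 51.7 RPM in GGATAT, B50 and CTATAG at 50 mM KCl (log2 fold change -0.97, adjusted p = 0.72, limma). NOP58 (log2 fold change -0.66) and UTP6 (-0.64) had the same sign, with B50 as the highest library of each. UTP20 had a log2 fold change of 0.56 and NOP8 of 0.65, both without a call. The members nearest to no change were UTP18 (log2 fold change -0.02), UTP11 (0.03) and UTP22 (0.03). With the run as a term 0 members were called in bmh1∆ by limma, against 8.72% of all genes, and 7 had an unadjusted p under 0.05 (25% of all genes), and the 95% interval lay within -1 and 1 in 33 of 59 members (45.8% of all genes), against 12 (20.7% of all genes) without that term. Without B0 and GTCACG 0 members were called and 4 had an unadjusted p under 0.05, against 15% of all genes (limma).

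The difference between the 2 responses (bmh2∆ response minus bmh1∆ response) passed in 0 members, as it did in 0.0% of all genes. An unadjusted p under 0.05 was found for 2 members, against 3.2% of all genes (limma). UTP20 had the smallest, with a difference of -1.09 (95% interval -2.02 to -0.16), being lower at 0 mM KCl in bmh2∆ and at 62.2, 49.0 and 35.6 RPM in bmh1∆ GTCACG, B0 and TGCACT at 0 mM KCl, against 32.1, 26.9 and 37.9 RPM in GGATAT, B50 and CTATAG at 50 mM KCl. UTP7 followed with 1.29 (95% interval 0.02 to 2.56). UTP21 (-1.20), UTP11 (-1.09) and NOP56 (-0.70) had intervals that included 0. The median difference was -0.02 for the UTP genes and -0.17 for the others, beside -0.12 for all genes tested. Without B0 and GTCACG the median of the UTP genes was -0.37 and 0 members had an unadjusted p under 0.05, against 1.61% of all genes (limma).

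Comparing the strains, bmh2∆ minus bmh1∆, mixes strain with run, because all lane 1 libraries are of bmh1∆. At 0 mM KCl 0 members passed, against 0.0189% of all genes, and 4 had an unadjusted p under 0.05, all lower in bmh2∆, against 11.5% of all genes (limma). This count rested on single libraries. It was 17 (10 higher and 7 lower in bmh2∆) without B0 and GTCACG, against 19.6% of all genes, 21 without B0 alone (31.1% of all genes) and 23 without B50 (32% of all genes), and it ran from 0 to 23 when each library was left out in turn, with 0 members called each time (limma). With the run as a term it was 1. In the fit of all libraries the 4 were UTP30 (log2 fold change -1.16, SE 0.42), UTP11 (-1.10, SE 0.49), the exosome subunit RRP43 (-1.04, SE 0.46) and RPF2, which brings the 5S RNA to the 60S precursor (-1.92, SE 0.87), each with adjusted p = 0.395 (limma). UTP11 was at 62.6 to 85.9 RPM in bmh2∆ and 111 to 179 RPM in bmh1∆ at 0 mM KCl, without overlap, as in 8 members in all that were lower (11.8% of all genes) and 2 that were higher in bmh2∆ (6.57% of all genes). RPF2 was at 17.4 to 24.3 RPM in bmh2∆ and 20.5 to 155 RPM in bmh1∆, where the low value was that of B0. NOC3, a 60S factor, had the next p with 148 ± 4.37 RPM in bmh2∆ and 73.6 ± 60.4 RPM in bmh1∆ (log2 fold change 1.29). With the run as a term RPF2 was at 0.05 (95% interval -0.56 to 0.65), NOC3 at 0.01 (95% interval -0.61 to 0.62), RRP43 at -0.17, UTP11 at -0.21 and UTP30 at -0.65. The median of the UTP genes was -0.22 and that of the others -0.17, beside -0.15 for all genes. With the run term these medians were -0.05, 0.05 and 0.03. All run-term differences between strains, at either KCl concentration, rest on B0 and B50 as the only lettered libraries of bmh1∆. B0 may not be a single library, and these differences were not computed without it. In B0 RPF2 was at 20.5 RPM and NOC3 at 143 RPM, near the levels of bmh2∆.

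At 50 mM KCl 0 members passed, against 0.0568% of all genes, and 11 had an unadjusted p under 0.05, 7 higher and 4 lower in bmh2∆, against 16.6% of all genes (limma). NOP56 was at 778, 744 and 974 RPM in bmh2∆ C, D and E, against 366, 414 and 495 RPM in bmh1∆ GGATAT, B50 and CTATAG (log2 fold change 0.97, SE 0.26, adjusted p = 0.175, limma). UTP21 was at 200.4, 229.6 and 217 RPM in bmh2∆ C, D and E, against 130.4, 62.4 and 39.8 RPM in bmh1∆ GGATAT, B50 and CTATAG (log2 fold change 1.63, SE 0.45, adjusted p = 0.177, limma). UTP7 was at 48.3, 31.5 and 30.7 RPM in bmh2∆ C, D and E, against 106.5, 61.4 and 95.2 RPM in bmh1∆ GGATAT, B50 and CTATAG (log2 fold change -1.22, SE 0.41, adjusted p = 0.21, limma). These are 3 of 7 members higher and 6 lower in bmh2∆ without overlap, against 10.7% and 9.28% of all genes, and with the run as a term their differences were 0.91, 1.32 and -0.78 in that order, with 95% intervals of 0.27 to 1.54, 0.27 to 2.37 and -1.67 to 0.11. NOP2 (log2 fold change 1.56) and RRP3, a helicase of the 40S pathway (2.52), were also higher, and with the run as a term their differences were 0.57 and 0.98 with intervals that included 0. The UTP median was -0.16 and that of the others 0.00, beside -0.01 for all genes, and with the run term 0.20, 0.29 and 0.14. Without B50, when strain and run cannot be told apart, 10 members were called higher and 7 lower, against 11.3% and 14.1% of all genes (limma).

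Other genes of the pathway were taken from lists of partners that the name rule does not reach. In bmh2∆ starvation, 1 of 35 tested processome partners, 1 of 49 partners of the 60S pathway and 1 of 14 regulators passed, all lower at 0 mM KCl, against 2.63% of all genes called lower. None of 15 exosome partners, 14 genes of RNA polymerase I or 21 of RNA polymerase III passed, with 2, 1 and 0 at an unadjusted p under 0.05 (limma). The regulators went in both directions. Of the 14, 5 were higher and 3 lower at 0 mM KCl without overlap, against 20.2% and 20.5% of all genes. At an unadjusted p under 0.05, 2 regulators were higher and 2 lower, against 19.2% of all genes (limma). FCF1, also known as UTP24, is the likely nuclease of the first cuts in the 18S precursor. It was at 7.34, 5.96 and 13.5 RPM in bmh2∆ C, E and D at 0 mM KCl, against 26.7, 30.6 and 27.7 RPM in C, D and E at 50 mM KCl (log2 fold change -1.63, SE 0.34, adjusted p = 0.0213, limma). LOC1, which acts in 60S assembly, was at 3.78, 3.02 and 8.97 RPM in C, E and D at 0 mM KCl, against 15.6, 27.7 and 26.9 RPM in C, D and E at 50 mM KCl (log2 fold change -2.04, SE 0.53, adjusted p = 0.0481, limma). RAP1, the factor bound at most ribosomal protein genes, was at 13.9, 10.999 and 14.3 RPM in C, E and D at 0 mM KCl, against 66.2, 81.5 and 78.6 RPM in C, D and E at 50 mM KCl (log2 fold change -2.44, SE 0.43, adjusted p = 0.0132, limma). In each of the 3 every starved bmh2∆ library lay below every library with KCl. The call was lost on leaving out C50, D50, E50, C0 or E0 for FCF1 (highest adjusted p 0.104), and D50, E50, C0 or E0 for RAP1 (highest adjusted p 0.0682), while LOC1 lost it without any of 9 libraries (highest adjusted p 0.183, all limma). In bmh1∆ the same genes had log2 fold changes of -0.60, -0.69 and -0.77 in that order, none of which passed, and no partner passed in the other 4 comparisons.

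Members also differed between the runs within bmh1∆, a comparison made after the data had been seen. In the fit with the run as a term, lane 1 differed from the lettered libraries in 39 of 59 members, 23 higher and 16 lower, against 58.3% of all genes (36.1% higher and 22.2% lower). The share among the members was therefore near that of all genes. Over all 12 libraries, the 4 of lane 1 did not overlap with the 8 lettered ones in 18 members that were higher and 15 that were lower, against 22% and 12.2% of all genes. Of the lettered libraries only B0 and B50 are labelled bmh1∆. B0 may not be a single library, so for bmh1∆ this rests mainly on B50. The 7 exosome subunits named RRP were all higher in lane 1, with a median log2 difference of 1.29. Among subunits with other names, CSL4 and SKI6 also lay above B0 and B50 in every lane 1 library, and MTR3 overlapped. DIS3 lay below, with 9.98 to 16.2 RPM in lane 1 against 35.4 and 92.8 RPM in B0 and B50. The 60S factors included 4 higher and 9 lower, the UTP genes 6 higher and 3 lower. Leaving out B0 and GTCACG gave 25 higher and 14 lower, against 35.1% and 20.2% of all genes, and leaving out B50 gave 13 higher and 10 lower, against 16% and 8.45% of all genes (limma).

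RPF2 was at 149 and 155 RPM at 0 mM KCl and 174 and 173 RPM at 50 mM KCl in lane 1, against 20.5 and 19.6 RPM in B0 and B50, a log2 difference of 2.96 (SE 0.24, adjusted p = 1.98e-06, limma). The 6 bmh2∆ libraries lay between 15.9 and 24.3 RPM. NOP6, an RNA-binding protein of the 40S pathway, was at 251.5 to 271 RPM in lane 1, against 70.2 and 19.7 RPM in B0 and B50 (log2 difference 2.79). RRP12, a protein needed for export of both subunits, was at 35.9 and 16.7 RPM at 0 mM KCl and 42.98 and 11.7 RPM at 50 mM KCl in lane 1, against 225 and 395 RPM in B0 and B50, a log2 difference of -3.61 (SE 0.47, adjusted p = 5.78e-05, limma). RRP3 (log2 difference -2.31), UTP23 (-2.24) and NOC3 (-1.93) were also lower in lane 1. For all these genes except UTP23 each lane 1 library lay outside the range of the 8 lettered ones at either KCl concentration. Of those 8 only B0 and B50 are labelled bmh1∆.

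**Figure D4:**
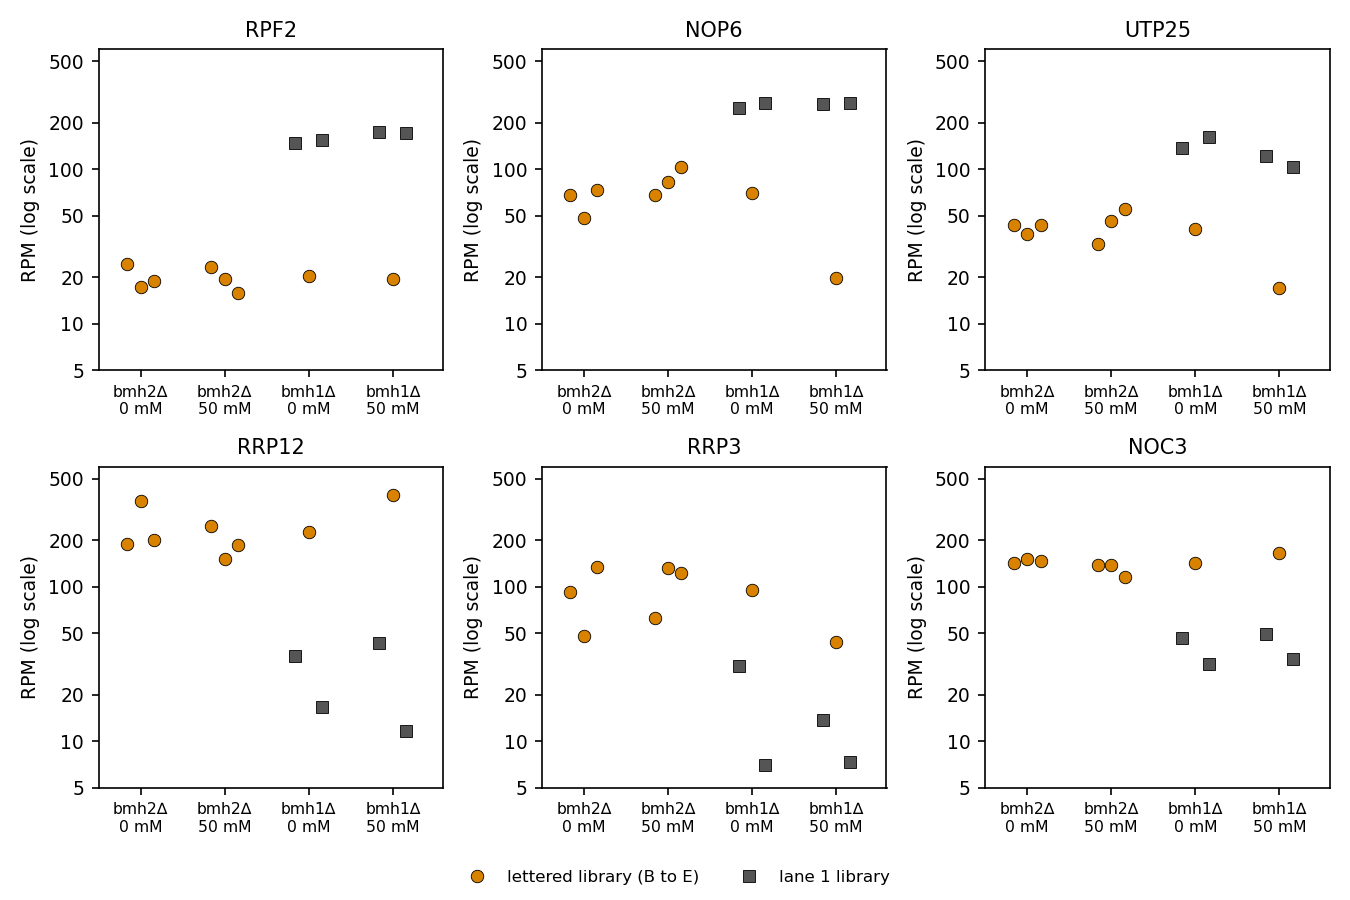
Level in RPM (log axes) of RPF2, NOP6, UTP25, RRP12, RRP3 and NOC3 in each library, by strain and KCl concentration. Squares are the 4 lane 1 libraries of bmh1∆ and circles the 8 lettered libraries; the squares lie above all circles in the upper row (RPF2 149 to 174 RPM in lane 1) and below all circles in the lower row (RRP12 11.7 to 42.98 RPM in lane 1).

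The position of the tag site moved with this difference. In the R64 sequence 58 of 59 members hold a CATG in the coding sequence or the 150 bases after it, where the most 3′ site was taken, and all 58 tags occur once in the genome. The transcript ends are not known here, so a site after the stop codon may lie beyond the RNA. For the 23 members higher in lane 1, the median site lay 48.0 bases after the stop codon, and 21 had it there or within 100 bases before the end of that codon. So did 5 of the 16 members lower in lane 1 and 11 of the 20 not called. For the 16 lower in lane 1 the median site lay 289 bases before that end, 10 were more than 200 bases before it, and RRP17 had none. A site more than 200 bases before that end was also held by 1 of the 23 higher and 6 of the 20 not called. Of the 27 members with the site after the stop codon, 14 were higher and 4 lower, against 51.2% and 11.5% of all 1946 such genes. Of the 10 with it within 100 bases before the end, 7 were higher and 1 lower, against 43.1% and 15.1% of all 908 such genes. Of the 11 members whose most 3′ site was more than 300 bases before the end, 0 were higher and 7 lower at an adjusted p under 0.05 (limma; NSA2 was higher at an unadjusted p under 0.05), beside 12.4% and 45.4% of all 1044 such genes. Over the 58 members Spearman's rho between the position and the log2 difference was -0.38 (Pearson's r -0.55), and over 5030 genes it was -0.38 (r -0.36), where genes share the libraries and are no independent replicates. Without B0 and GTCACG rho was -0.41 for the members and -0.43 for all genes. The part of the tag site in the difference between runs was not tested. The tags below are those of members at both ends of the difference, with the CATG in capitals. RPF2 (chrXI:591720-591740 on the minus strand), NOP6 (chrIV:77190-77210 on the minus strand) and UTP25 (chrIX:191042-191062 on the minus strand) were higher in lane 1, and RRP12 (chrXVI:532086-532106 on the plus strand), UTP23 (chrXV:333768-333788 on the plus strand) and NOC3 (chrXII:154596-154616 on the minus strand) lower. The NOP6 site lies 79 bases after the stop codon and the UTP25 site 33 bases before its end. The RRP12, UTP23 and NOC3 sites lie 1324, 589 and 274 bases before it, and RPF2, with its site 235 bases before it, was higher all the same. In the other direction, RRP8, NOC2, NOP2 and RRP3 have their site after the stop codon and were lower in lane 1, with log2 differences of -2.09, -1.52, -1.48 and -2.31 in that order.
RPF2: CATGggtgataaattgggtag
NOP6: CATGctactgccaaaaaaaga
UTP25: CATGcacaaaaggaaatttat
RRP12: CATGgtagatagcgcctcctc
UTP23: CATGatcacacagtgttgcat
NOC3: CATGtgcatcagccatacccc

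**Figure D5:**
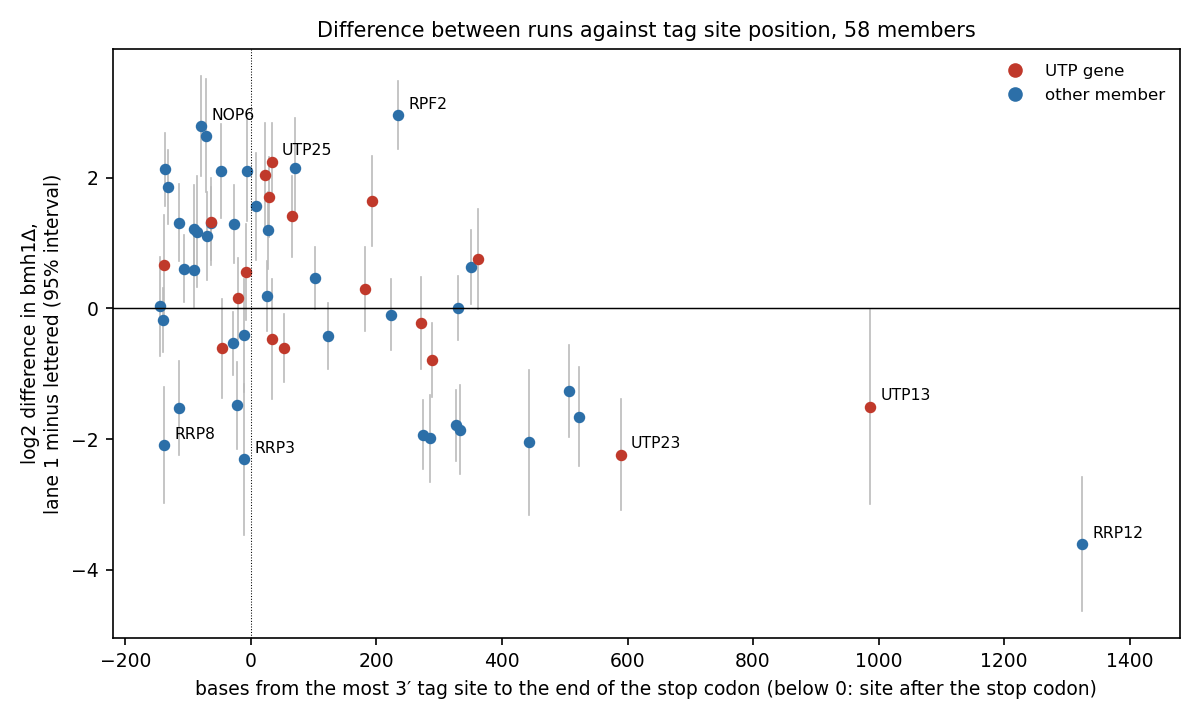
Log2 difference between lane 1 and lettered libraries of bmh1∆ (95% intervals, vertical axis) against the distance in bases from the most 3′ CATG to the end of the stop codon (horizontal axis, below 0 after the stop codon) for 58 members. RRP12 (-3.61), UTP23 (-2.24) and the other points farthest to the right lie below 0 and most points left of or near the stop codon lie above 0, with RPF2 (2.96) on one side and RRP3 (-2.31), RRP8 (-2.09), NOC2 (-1.52) and NOP2 (-1.48) on the other among the exceptions.

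The spread within groups was larger in bmh1∆, which has both runs, than in bmh2∆. The median SD of a member on the log2 scale was 0.24 in bmh2∆ at 0 mM KCl and 0.27 at 50 mM KCl, against 0.65 in bmh1∆ at 0 mM KCl and 0.97 at 50 mM KCl. For all genes tested it was 0.32 and 0.24 in bmh2∆ at 0 and 50 mM KCl, against 0.51 and 0.74 in bmh1∆ at 0 and 50 mM KCl. The members were thus spread a little more than the median gene in bmh1∆ and no more than it in bmh2∆ at 0 mM KCl.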

How the data were processed

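RNA of 12 SAGE-tag libraries (3 for each strain and KCl concentration) was used, in 1 table of 6053 genes. The deposited values are RPM, which the authors computed per library from counts of trimmed tags per gene, and every library has the same total. Aligner, build and annotation: not given in the sources used here. Of these genes 5278 had at least 3 RPM in at least 3 libraries. They were tested with limma 3.58.1 (R 4.3.3) after adding a pseudocount of 1 RPM and taking log2, in 1 fit of the 4 groups with the trend and robust options, two-sided, Benjamini-Hochberg over all genes tested; fold changes on this scale understate those of low genes. No count model was used, since the values are not counts. Sequences and positions came from RefSeq build R64 (all 59 member names matched), read with Python 3.11.15, NumPy 2.4.6, pandas 2.3.3, SciPy 1.17.1 and matplotlib 3.10.9. The tests were checked on simulated data, drawn independently for each library and without a difference between runs. That check therefore cannot tell how the tests behave with the runs found here.

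The members and lists were chosen with earlier results of these data known. Named are, for each starvation comparison, the 10 members with the smallest p, the 3 nearest to 0 and those opposite to the median by more than 0.5; the 5 with the smallest p for each other comparison; the highest and lowest of each role group; and partners that passed, up to 4 per list. NOP7, UTP13 and the members named by run difference or lack of overlap were partly chosen after their values were seen. NOP10, NOP16 and NOP19 are not used here. The run difference, the lettered and the lane 1 libraries alone were added after seeing the data.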

Additional observations from a re-analysis of the deposited data

How the results depend on the processing

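Of the alternatives tried, none reversed the sign of a named gene that passed in either of the fits compared. Most named genes passed in no fit, and their changes of sign were not counted. RPF2 between strains at 0 mM KCl with the run term is an example. Single calls of named genes were gained 24 times and lost 20 times. Starvation in bmh2∆ called 0 members as reported. It called 1 higher at an adjusted p of 0.10, with quantile normalization or with median-of-ratios scaling, 2 higher and 1 lower with the run as a term, and 2 higher and 2 lower with the compared groups or the lettered libraries alone, and 0 to 1 in each direction when each library was left out in turn. With a replicate block by culture letter it called 1 higher and 1 lower. Over all genes the share called was 5.53% as reported, 20.1% with the run term, 23.9% and 23.7% with the compared groups and the lettered libraries alone, 17.9% with the block, and 0.531% to 12.4% when each library was left out, so the share among the members stayed below it in the run, subset and block fits. The letters do not pair the libraries (correlations of same-letter bmh2∆ libraries 0.07, -0.29 and 0.25), and the column names carry no replicate numbers. The strain comparison at 50 mM KCl called 10 higher with the lettered libraries alone (12.4% of all genes higher and 1.91% lower), and 0 to 10 higher and 0 to 7 lower when each library was left out, the highest without B50 (11.3% and 14.1% of all genes). The run difference called 13 to 25 members higher and 10 to 17 lower, and 24.4% to 59.3% of all genes, the fewest without B50. Starvation in bmh1∆ called 0.966% of all genes as reported, 0.246% with the lane 1 libraries alone and 1.93% with the lettered ones alone, with 0 members in each.

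The class medians moved by more than the spread of library medians as follows. The median of the members other than UTP was 0.0174 for starvation in bmh1∆ and -0.0017 for the interaction with median-of-ratios scaling, and 0.0024 and 0.0028 at 0 mM KCl between strains with quantile normalization and median-of-ratios scaling, when the median of all genes moved to 0.03 and 0.02. It was 0.0483 at 0 mM KCl with the run term, -0.45 for the interaction with lettered libraries alone, and 0.29 at 50 mM KCl with either. The UTP median was 0.20 at 50 mM KCl with the run term, 0.32 with lettered libraries alone, and -0.37 for the interaction without B0 and GTCACG. When each library was left out in turn, the interaction median ran from -0.37 to 0.0613 for the UTP genes and from -0.37 to -0.0552 for the others, and the 50 mM KCl strain median of the others from -0.34 to 0.22. The causes were not tested.

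The number of libraries and the spread of bmh1∆ limit all tests here. The depth of the libraries rests on the step of the values and is not known as read counts.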
